A study of Sus scrofa with 8 samples.

Results

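PAX1, PAX9 and their partners in the sclerotome were followed as 7 genes measured in all 8 single-cell libraries of a pig embryo series. The members were looked up by gene symbol among the 21301 genes of the count matrices. Of the 8 symbols sought, PAX1, PAX9, NKX3-2, TBX18, FOXC1, FOXC2 and MOXD1 were found, and no row carried the symbol TWIST1. PAX1+ cells, those with at least 1 UMI (a distinct RNA molecule counted in a cell) of PAX1, were also compared with PAX1- cells, and were split by whether they held a UMI of MATN4 or ACAN.

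The libraries were made from somites at embryonic days E16, E18 and E21 and from the myotome, the muscle-forming part of the somite, at E28. At each stage 1 library came from Tibetan pigs (ZZ) and 1 from DZ embryos, a cross of the Duroc breed with Tibetan pigs, and each held the pooled cells of 5 embryos of the same sow. The labels name no treatment and no modified allele. Below, early libraries are those of E16 and E18 and late libraries those of E21 and E28.

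In the vertebrate embryo, the ventral part of each somite becomes the sclerotome, the source of the vertebrae and ribs, under Hedgehog signals from the notochord and floor plate. PAX1 and PAX9 are related paired-box transcription factors that mark the sclerotome and act together in forming the vertebral column. NKX3-2 is a homeodomain factor downstream of them that favours cartilage, FOXC1 and FOXC2 are forkhead factors of the paraxial mesoderm, TBX18 is a T-box factor that keeps the front and rear parts of each somite apart, TWIST1 is a basic helix-loop-helix factor of mesenchyme, and MOXD1 is a copper-binding monooxygenase-like protein. MATN4 (a matrilin) and ACAN (aggrecan, the main proteoglycan of cartilage) are matrix genes that mark cells on the way to cartilage.

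PAX1 and PAX9 have long been studied as a pair, and over cell classes PAX9 was the gene most like PAX1 here, so the stretch around the start of each gene is shown. In RefSeq on Sscrofa11.1, PAX1 (ENSSSCG00000007112) lies on the plus strand of chromosome 17 from 29421117 to 29436481, and PAX9 (ENSSSCG00000001942) on the minus strand of chromosome 7 from 63324709 to 63346326. The sequences run from 250 bases before to 50 bases after the annotated gene start, at chr17:29420867-29421166 (plus strand) and chr7:63346277-63346576 (minus strand), and capitals mark each CG pair.
PAX1: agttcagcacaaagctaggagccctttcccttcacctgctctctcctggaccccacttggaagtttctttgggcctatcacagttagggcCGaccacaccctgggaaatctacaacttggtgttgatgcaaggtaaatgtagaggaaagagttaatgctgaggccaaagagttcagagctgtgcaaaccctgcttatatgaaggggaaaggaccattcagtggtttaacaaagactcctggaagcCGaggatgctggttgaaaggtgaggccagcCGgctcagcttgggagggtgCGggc
PAX9: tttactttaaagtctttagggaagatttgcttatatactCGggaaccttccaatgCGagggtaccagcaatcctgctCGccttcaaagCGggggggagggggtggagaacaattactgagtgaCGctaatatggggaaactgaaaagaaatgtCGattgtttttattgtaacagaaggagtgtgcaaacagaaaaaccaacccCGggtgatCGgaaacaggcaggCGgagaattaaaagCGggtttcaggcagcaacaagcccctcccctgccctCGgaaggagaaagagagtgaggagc

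The PAX1 stretch held 4 CG pairs and the PAX9 stretch 11, against a median of 16 over the 19561 promoters of this length that were read from the same genome. Of those promoters, 16.64% had fewer CG pairs than PAX1 and 38.91% fewer than PAX9. This describes the annotated start sites only, which were not measured in these libraries.

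After removal of barcodes by the limits on genes, UMIs and mitochondrial share and of likely doublets, 5436 to 10956 cells remained per library, with 39852689 to 57568710 UMIs in all and a median of 3405 to 6160.5 UMIs per cell. E16-ZZ stood apart, since 39.16% of its barcodes exceeded the mitochondrial limit, against 1.046% to 9.147% in the other libraries, and the E16 matrices came from another version of Cell Ranger. Pairs of libraries shared 13 to 38 cell barcodes. With 1 library per stage and breed, p-values between stages measure only the spread between libraries after a common breed effect, and stage cannot be told apart from tissue at E28 or from the Cell Ranger version at E16.

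In whole libraries, PAX1 and PAX9 were lowest at E16 and higher at every later stage. The quantity given is CPM, the UMIs of the gene for every 1000000 UMIs of the library, with the number of UMIs where it is small. PAX1 stood at 9.79 CPM (ZZ) and 7.84 CPM (DZ) on day E16, then 42.2 (ZZ) and 40.4 (DZ) on E18, 92.1 (ZZ) and 42.5 (DZ) on E21, and finally 34.9 (ZZ) and 29.9 (DZ) on E28. The E16 libraries were below all others, and at E21 the library from ZZ stood far above that from DZ. PAX9 stood at 0.928 CPM (ZZ) and 0.852 CPM (DZ) on day E16, then 5.59 (ZZ) and 5.98 (DZ) on E18, 17.1 (ZZ) and 12.3 (DZ) on E21, and finally 8.39 (ZZ) and 10.6 (DZ) on E28. No PAX9 value of an early library reached that of a late one, whereas PAX1 overlapped between early and late libraries. These are sums over all cells of a library, in which more cells that make a gene and more RNA per cell cannot be told apart.

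**Figure D1:**
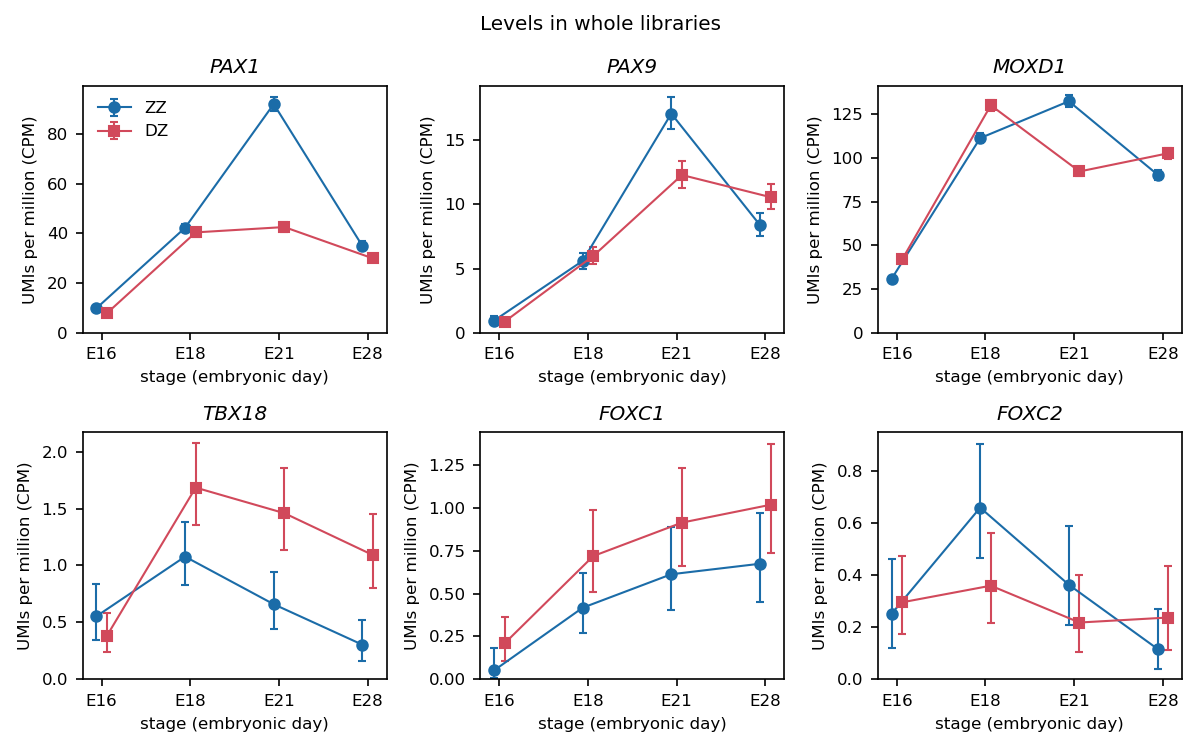
Level of 6 members (vertical axis, CPM) against stage (horizontal axis) for ZZ (circles) and DZ (squares). Each point is 1 library of 5 pooled embryos, bars are exact 95% Poisson intervals of the count and lines only join libraries of a breed. PAX1, PAX9 and MOXD1 are lowest in both E16 libraries, and PAX1 peaks at 92.1 in E21-ZZ.

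From E16 to E18, PAX1 rose by 2.08 on the log2 scale (SE 0.21, adjusted p = 0.0104, edgeR's quasi-likelihood test over 15119 genes), PAX9 by 2.53 (SE 0.23, adjusted p = 0.00875) and MOXD1 by 1.57 (SE 0.19, adjusted p = 0.0146). These were 3 of the 6 members tested, beside 4.71% of all genes called in that comparison. From E18 to E21, only PAX9 was called among the 6 members tested, rising by 1.24 (SE 0.21, adjusted p = 0.0106). With 21.2% of all genes called there, members were called no more often than any gene. PAX1 changed by 0.53 there (adjusted p = 0.11). From E21 to E28, PAX1 fell by 0.99 (SE 0.21, adjusted p = 0.0337), beside 8.53% of all genes, and PAX9 gave -0.64 (SE 0.21, adjusted p = 0.108). The 3 comparisons share libraries and are not independent of each other. They rest on 2 libraries a stage and each lost calls when 1 library was left out. Without E18-DZ none of the 3 members called at E18 passed, and far fewer genes of any kind were called there too. The changes were then 1.84 for PAX1, 2.46 for PAX9 and 1.49 for MOXD1. PAX9 at E21 was lost without E21-ZZ (1.03, adjusted p = 0.0533) and without either E18 library (1.16 and 1.29, adjusted p = 0.116 and 0.0844). The fall of PAX1 at E28 shrank to -0.61 without E21-ZZ (adjusted p = 0.0947). The PAX1 call at E28 was also lost without either E28 library (adjusted p = 0.115 and 0.102), without either E16 library (0.0555 and 0.0559), without both E16 libraries (-0.99, adjusted p = 0.0553) and with no breed term in the fit (-1.04, adjusted p = 0.0636).

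Between late and early libraries, PAX9 averaged 12.1 ± 3.70 CPM against 3.34 ± 2.83 (SD, n = 4 each) and was higher by 2.19 on the log2 scale (SE 0.16, adjusted p = 0.000132). PAX1 averaged 49.9 ± 28.6 against 25.1 ± 18.8 and differed by 1.07 (SE 0.15, adjusted p = 0.00128). In all 4 members were called of 6 tested, beside 51.9% of all genes, so that the members were called about as often as any gene. The E16 libraries decided most of these calls. Without them PAX9 was still higher, by 0.94 (adjusted p = 0.0167), but PAX1 differed by 0.04 (adjusted p = 0.883), FOXC1 by 0.44 (adjusted p = 0.387) and MOXD1 by -0.30 (adjusted p = 0.144).

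The PAX9 count also grew relative to that of PAX1 within the same library. As a percentage of the PAX1 UMIs, PAX9 UMIs came to 9.487% (ZZ) and 10.86% (DZ) on E16, to 13.25% (ZZ) and 14.81% (DZ) on E18, to 18.56% (ZZ) and 28.93% (DZ) on E21, and to 24.03% (ZZ) and 35.37% (DZ) on E28. The 4 late libraries were all above the 4 early ones, and at every stage DZ was above ZZ. This ratio was not tested, and it does not compare the levels of the 2 genes, whose transcripts differ in how they are captured.

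MOXD1 (ENSSSCG00000004191, chromosome 1 from 31282491 to 31367589, plus strand) was the most often counted member, with 35220 UMIs in all. Its level was 30.7 CPM (ZZ) and 41.9 CPM (DZ) on day E16, then 111.4 (ZZ) and 130.2 (DZ) on E18, 132.5 (ZZ) and 92.3 (DZ) on E21, and finally 90.5 (ZZ) and 102.7 (DZ) on E28. Beyond the rise from E16 to E18, it showed no further call between neighbouring stages, and of the late libraries E21-ZZ was above both E18 libraries and the other 3 were below both.

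The other members were sparse. They lie on chromosome 8 (NKX3-2), 1 (TBX18), 7 (FOXC1) and 6 (FOXC2). NKX3-2 gave 5 UMIs in the whole series, 1 in E16-ZZ, 3 in E21-ZZ and 1 in E21-DZ. Its 0 in each of the other 5 libraries allows up to 3 UMIs, or 0.0521 to 0.0711 CPM, so that its level could not be followed at this depth. TBX18 gave 350 UMIs, from 13 in E28-ZZ to 89 in E18-DZ, and its breeds lay apart at E21, with 29 UMIs in ZZ and 67 in DZ, and at E28, with 13 and 46. FOXC1 gave 217 UMIs, with 2 and 12 in the E16 libraries and 24 to 43 in each later library, where DZ had more than ZZ at every stage. FOXC1 was higher in late libraries by 1.41 on the log2 scale (SE 0.34, adjusted p = 0.0130), a call that was also lost without either E18 library. FOXC2 gave 125 UMIs, from 5 in E28-ZZ to 38 in E18-ZZ. TBX18 and FOXC2 passed the test between no pair of neighbouring stages, nor between late and early libraries, where TBX18 gave -0.21 (adjusted p = 0.68) and FOXC2 -0.90 (adjusted p = 0.109).

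No member passed the test between the breeds. Over all genes edgeR called 0 (0.0% of 15119), 915 had an unadjusted p of 0.05 or less, and DESeq2 called 57. PAX1 gave -0.45 for DZ against ZZ (SE 0.15, unadjusted p = 0.0175, adjusted p = 0.79), and it was lower in DZ at all 4 stages. FOXC1 gave 0.81 (SE 0.34, unadjusted p = 0.0483, adjusted p = 0.81) and was higher in DZ at all 4 stages.

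Because a share of cells with a UMI grows with depth, each cell was thinned to 2000 UMIs and shallower cells were left out, which left 5238 to 10086 cells per library. The share of cells with a PAX1 UMI was then 2.176% (ZZ) and 1.664% (DZ) on E16, 6.507% (ZZ) and 7.233% (DZ) on E18, 11.12% (ZZ) and 6.895% (DZ) on E21, and 5.654% (ZZ) and 5.622% (DZ) on E28. The mean of the late libraries was 7.323% ± 2.6 and that of the early ones 4.395% ± 2.881 (SD, n = 4 each), and their gap of 2.928 points missed the threshold in an exact two-sided permutation test (p = 0.257, also after adjustment over 2 share tests). Without thinning the means were 10.82% and 7.361%. In cells that should lack the gene, a PAX1 UMI was found in 11 of 2897 neuron-like cells (0.3797%) and 3 of 660 erythroid-like cells (0.4545%) of the same thinned data, and in 16 of 2082 endothelial-like cells (0.7685%). Within single libraries the highest of these shares were 0.5291% in neuron-like cells (E21-ZZ), 1.681% in erythroid-like (E18-DZ) and 4.082% in endothelial-like cells (E21-ZZ), on 8 to 1701 cells of a class in a library. In 8 of 8 libraries the share over all cells was above that of each of these classes in the same library.

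The share of PAX1+ cells that also held MATN4 or ACAN separated early from late libraries. It was 1.754% (ZZ) and 1.46% (DZ) on E16 and 2.713% (ZZ) and 1.642% (DZ) on E18. It then stood at 38.48% (ZZ) and 46.66% (DZ) on E21 and 59.47% (ZZ) and 46.91% (DZ) on E28. The groups did not overlap, with means of 1.892% ± 0.5604 and 47.88% ± 8.663 (SD, n = 4 each) that lay 45.99 points apart. The exact permutation test gave p = 0.0286, the smallest that 4 against 4 libraries allow, and 0.0571 after adjustment over the 2 share tests. Unthinned, the means were 3.891% and 55.04%. In the late libraries most of these cells were counted for MATN4: in E28-ZZ, 315 of the 317 such cells held MATN4 and 41 held ACAN. At E18 more of them held ACAN, 10 against 5 with MATN4 of 14 cells in ZZ and 7 against 3 of 10 in DZ.

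**Figure D2:**
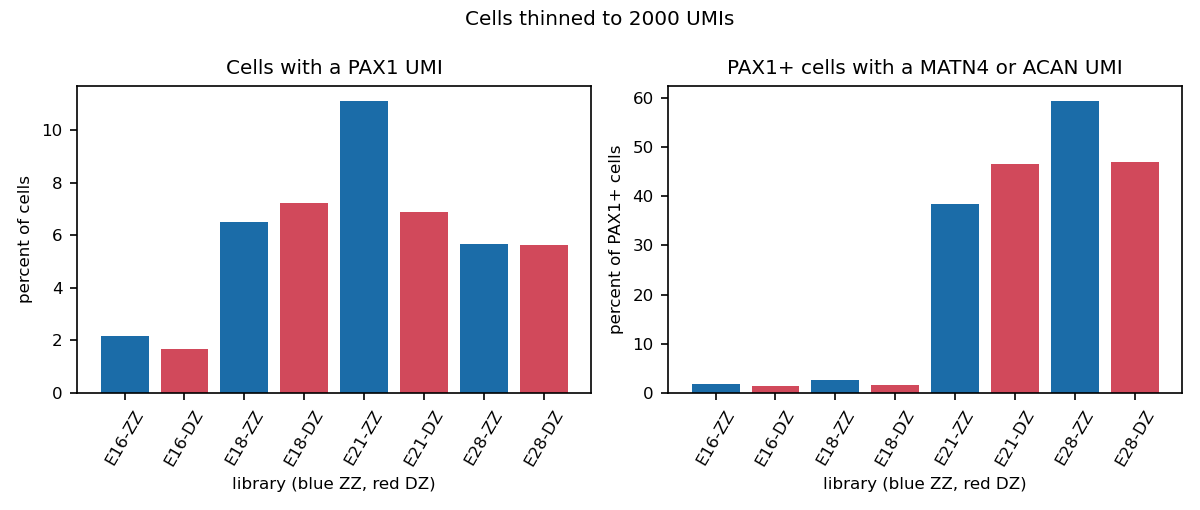
Left, percent of cells with a PAX1 UMI; right, percent of PAX1+ cells with a MATN4 or ACAN UMI, in each of the 8 libraries (blue ZZ, red DZ) after thinning each cell to 2000 UMIs. On the right the E16 and E18 libraries are at 2.713% or less and the E21 and E28 libraries at 38.48% or more.

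Both matrix genes moved in the same way over all cells. MATN4 went from 1.304 to 4.031 CPM over the early libraries to 165.9 to 438.6 over the late ones, and ACAN from 1.255 to 2.252 to 12.69 to 33.52. In the thinned late libraries a MATN4 UMI was found in 15.48% of all cells and in 1.485% of neuron-like cells, and an ACAN UMI in 2.772% and 0.07424%. In late endothelial-like cells the shares were 4.633% for MATN4, with 10.34% in the highest library, and 0.0% for ACAN. The share among late PAX1+ cells was thus above that over all cells, which ran from 11.29% to 21.89% for either gene. In the early libraries 18 of 1376 PAX1+ cells held ACAN (1.308%) and 11 held MATN4 (0.7994%), against 0.2637% and 0.457% of PAX1- cells. In early neuron-like cells each gene was found in 1 of 203 cells (0.4926%), and in endothelial-like cells ACAN in 0.1097% and MATN4 in 0.5485%.

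The other members were then compared between the PAX1+ and PAX1- cells of each library, with PAX1 itself left out because it chose the cells. There were 6992 PAX1+ cells, from 200 in E16-ZZ to 1595 in E21-ZZ. A cell is PAX1- when no PAX1 UMI was counted in it, so a PAX1- cell may still have made the gene. The median depth of PAX1+ cells ran from 2890 to 6278 UMIs and that of PAX1- cells from 3451 to 6208, and neither was the deeper in all libraries.

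PAX9 was higher in PAX1+ cells in 8 of 8 libraries. It stood at 20.6 CPM in the PAX1+ cells of E16-ZZ against 0.285 in PAX1- cells, and at 17.4 against 0.411 in E16-DZ. At E18 it stood at 30.4 against 2.36 in ZZ and 31.3 against 2.71 in DZ. At E21 it stood at 78.5 against 5.85 in ZZ and 52.8 against 6.76 in DZ, and at E28 at 39.3 against 5.67 in ZZ and 41.6 against 8.25 in DZ. The lowest PAX1+ value was above the highest PAX1- value. The average difference was 3.47 on the log2 scale (SE 0.30, adjusted p = 2.14e-05).

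MOXD1 was higher in PAX1+ cells in 7 of 8 libraries. It stood at 234.2 CPM against 24.1 in E16-ZZ and 289.9 against 35.2 in E16-DZ, and at 311.2 against 85.3 in E18-ZZ and 303.7 against 107.7 in E18-DZ. At E21 it stood at 188.5 against 122.2 in ZZ and 140.2 against 85.7 in DZ, and at E28 at 110.3 against 88.7 in ZZ and 65.1 against 105.5 in DZ. In PAX1+ cells the 4 late libraries were below the 4 early ones, in PAX1- cells the E16 libraries were the lowest, and in E28-DZ the PAX1+ cells held less than the PAX1- cells. Averaged over libraries MOXD1 was higher by 1.32 (adjusted p = 0.0299), a call that was lost without either E16 library, without either E18 library and without both E16 libraries (0.78, adjusted p = 0.0908).

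**Figure D3:**
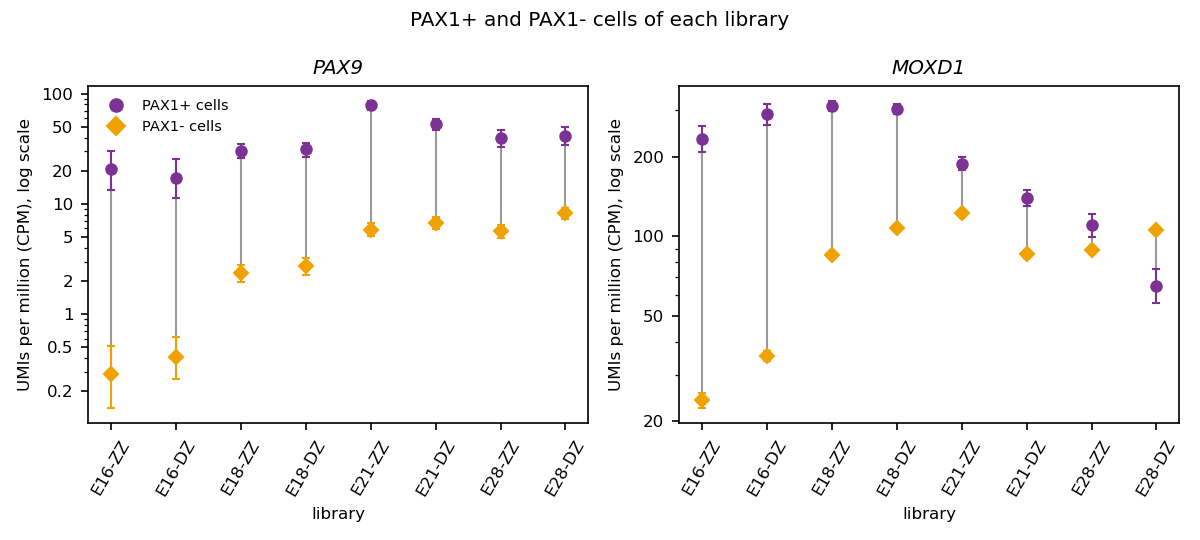
PAX9 (left) and MOXD1 (right) in CPM on a log axis, in PAX1+ cells (circles) and PAX1- cells (diamonds) of each library, with exact 95% Poisson intervals and a line joining both sums of a library. The PAX9 gap is present in 8 of 8 libraries, while the MOXD1 gap narrows from E16 to E28 and is turned round in E28-DZ.

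FOXC1, FOXC2 and TBX18 were also higher in PAX1+ cells, on few UMIs. PAX1+ cells held 0 to 16 UMIs of FOXC1 a library and the log2 difference was 2.01 (adjusted p = 0.00200). No FOXC1 UMI was found in the PAX1+ cells of E16-DZ. They held 1 to 11 UMIs of FOXC2, with a difference of 2.01 (adjusted p = 0.000440), and 1 to 24 UMIs of TBX18, with a difference of 1.15 (adjusted p = 0.0183). FOXC2 was higher in PAX1+ cells in 8 of 8 libraries and TBX18 in 7 of 8, the exception being E28-ZZ, where TBX18 stood at 0.2872 CPM in PAX1+ and 0.3035 CPM in PAX1- cells. NKX3-2 did not pass the filter on low counts. The 5 members that did were called, beside 20.7% of 14746 genes. With cells thinned to 2000 UMIs 3 of them passed, TBX18 (1.18, adjusted p = 0.0665) and FOXC2 (1.61, adjusted p = 0.104) being lost, and TBX18 was also lost without both E16 libraries (0.97, adjusted p = 0.0503), without E18-DZ (1.04, adjusted p = 0.0665) and without E21-ZZ (1.04, adjusted p = 0.0561). Of the 5 NKX3-2 UMIs of the series, the 4 of the E21 libraries fell in PAX1+ cells and the 1 of E16-ZZ in PAX1- cells.

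The size of the MOXD1 difference changed between early and late libraries. It was smaller in late libraries by 2.06 on the log2 scale (SE 0.37, adjusted p = 0.00544), the only call among 5 members, beside 5.29% of all genes. In early libraries alone MOXD1 differed by 2.34 between PAX1+ and PAX1- cells (adjusted p = 6.87e-05), and in late libraries alone by 0.29 (adjusted p = 0.506). Without both E16 libraries the change was -1.39 (adjusted p = 0.0590), and without both E28 libraries -1.57 (adjusted p = 0.00261). For PAX9 the change was -1.14 (adjusted p = 0.172), and DESeq2 called it at -1.53 (adjusted p = 0.0450).

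Shares of cells showed the same in the thinned data. A MOXD1 UMI was found in 630 of 1376 early PAX1+ cells (45.78%) and 604 of 2815 late ones (21.46%), against 12.36% and 15.81% of PAX1- cells. By library the share in PAX1+ cells ran from 40.35% to 51.09% at E16 and E18, against 29.85% (ZZ) and 21.21% (DZ) on E21 and 17.45% (ZZ) and 9.171% (DZ) on E28. The early and late libraries did not overlap. A PAX9 UMI was found in 5.451% of early and 9.84% of late PAX1+ cells, against 0.566% and 1.71% of PAX1- cells. In erythroid-like cells, which should lack both genes, the shares were 0.6061% for MOXD1 and 0.1515% for PAX9 over all libraries.

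The share of PAX9 RNA that lay in PAX1+ cells was lower at E28 than at the 3 earlier stages. PAX1+ cells held 70.27% (ZZ) and 53.06% (DZ) of all PAX9 UMIs on E16, 62.73% (ZZ) and 59.81% (DZ) on E18, 71.05% (ZZ) and 51.68% (DZ) on E21, and 37.95% (ZZ) and 27.35% (DZ) on E28. Of all UMIs they held 3.16% (ZZ) and 2.603% (DZ) on E16 and 11.56% (ZZ) and 11.44% (DZ) on E18. On E21 this base was 15.47% (ZZ) and 12.05% (DZ), and on E28 it was 8.096% (ZZ) and 6.953% (DZ). PAX1+ cells thus held less of all UMIs at E28 than at E21 too. The part of this in the shares of PAX9 and MOXD1 was not tested. For PAX9, E21-ZZ lay just above the range of E16 and E18 and E21-DZ just below it, and both E28 libraries were below all others. For MOXD1 the share was 18.02% to 32.27% over E16 to E21, and on E28 it was 9.866% (ZZ) and 4.406% (DZ).

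The genes that went with PAX1+ cells beside the members were named by a fixed rule of size. It takes only called genes with a mean of 20 CPM or more in the higher sum and the same direction in every library. Among the 10 with the largest rise were UNCX (2.24 on the log2 scale), MICALL2 (2.08), ACAN (1.80), GAS2 (1.73), STRA6 (1.64), FOXP2 (1.64), GLI1 (1.63), EPB41L4B (1.59) and COL2A1 (1.47), each higher in 8 of 8 libraries. UNCX is a homeobox factor of the posterior sclerotome, GLI1 is a transcriptional target and effector of Hedgehog signals, and COL2A1 is the main collagen of cartilage. The 5 with the largest fall were SNCG (-4.04), ENSSSCG00000002639 (-3.86), INA (-3.73), PRPH (-3.62) and RTN1 (-3.48). INA and PRPH are neurofilament genes. The summed level of the 7 neuron markers present (8 listed) ran from 7.146 to 440.7 CPM in PAX1+ and 63.09 to 2957 in PAX1- cells, and that of the 8 muscle markers from 82.99 to 266.5 and from 117.8 to 1611, so that the comparison is with a mixture of cell types. Of the neuron markers 1 was at 0 in the PAX1+ cells of every library. The part of these cells in the results was not tested.

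Of the Hedgehog pathway, which instructs the sclerotome, 4 of 10 genes tested rose in PAX1+ cells, 1 fell and 5 did not pass. The receptor PTCH1 (1.32), also a target of the pathway, rose with GLI1, as did the signal transducer SMO (0.32), and the co-receptor CDON fell (-1.29). The ligand SHH gave -0.86 (adjusted p = 0.366). The median over the list was 0.33, against -0.02 over all genes. Of 14 genes tested from a list of sclerotome partners, 6 rose, 1 fell and 7 did not pass, with a median of 0.62. That list is mixed, since MEOX1 and TCF15 also served as dermomyotome markers and SCX as a tendon marker. Beside UNCX the cartilage factors SOX9 (1.33) and SOX5 (1.30) rose, with MEOX2 (1.71) and TCF15 (1.30) of the early somite, and NOG, a BMP antagonist, fell (-1.62). Of 13 cartilage matrix genes 4 rose, 1 fell and 8 did not pass. COL2A1, COL9A3 (1.19), COL9A1 (1.10) and COL11A2 (0.97) rose, and HAPLN1, a link protein, fell (-0.78). The 5 called of 10, 7 of 14 and 5 of 13 stand beside 20.7% of all genes. The lists were chosen with earlier results of these data known. Their counts here and below therefore describe the data and are no independent support.

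Of the same list of sclerotome partners, 5 genes changed between early and late libraries in the direction of MOXD1. The PAX1+ difference was smaller late for MEOX2 (-2.57), MEOX1 (-1.68), TCF15 (-1.64) and UNCX (-0.68), among others, and the change from early to late was positive for GREM1, a BMP antagonist (2.96), and SOX6 (0.91). These 7 called of 14 stand beside 5.29% of all genes. Of the 13 cartilage genes 2 were called, COL11A1 with a change of 1.11 and HAPLN1 with 1.24, which for HAPLN1 took a difference of -1.38 in early libraries to -0.14 in late ones.

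Within PAX1+ cells, PAX9 was higher and MOXD1 lower in the late libraries. PAX9 rose by 0.96 on the log2 scale (SE 0.14, adjusted p = 0.000213) and MOXD1 fell by 1.38 (SE 0.15, adjusted p = 3.61e-05). Of the members tested these were called and FOXC1 and TBX18 were not, beside 43.4% of 11546 genes. Members were thus called about as often as any gene. For PAX9 the early libraries ran from 17.4 to 31.3 CPM and the late ones from 39.3 to 78.5, and for MOXD1 the early ones from 234.2 to 311.2 and the late ones from 65.1 to 188.5. The groups did not overlap for either gene. Both calls held without both E16 libraries, with 0.67 for PAX9 (adjusted p = 0.00593) and -1.44 for MOXD1 (adjusted p = 0.000109). They use the same PAX1+ sums as the comparison with PAX1- cells and are not independent of it. FOXC1 gave 1.88 (adjusted p = 0.0521) and TBX18 -0.96 (adjusted p = 0.208), and FOXC2 had too few UMIs to be tested.

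Other genes of the PAX1+ cells also differed between these stages. Of 13 sclerotome partners tested 9 rose and 3 fell, with a median of 0.96 against 0.03 over all genes. Of 11 cartilage matrix genes 9 rose and 1 fell, with a median of 2.78. ZIC1 (6.53) and RUNX2 (6.51), a factor of bone formation, rose most in the first list, and TCF15 (-1.64) and MEOX1 (-0.84) were among those that fell. GLI3 (1.22), BOC (1.56) and GLI1 (0.58) rose among 9 Hedgehog genes, 2 fell, among them PTCH1 (-0.42), and 4 did not pass. The 5 called of 9 stand beside 43.4% of all genes.

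Last, PAX1+ cells with a MATN4 or ACAN UMI were compared with those without, in the 6 libraries of E18, E21 and E28, since E16 had only 9 and 5 such cells. There were 56 and 42 cells with either gene at E18 and 465 to 739 in each late library. At E18 more of them held ACAN than MATN4, 42 against 20 in ZZ and 30 against 12 in DZ, while most late ones held MATN4. The split at E18 thus rests mainly on another gene than the split in the late libraries. Cells with either gene were deeper in 6 of 6 libraries, with a median of 2897 to 6706 UMIs against 2882 to 6260. PAX1, MATN4 and ACAN chose the cells and were not tested.

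PAX9 differed in opposite directions in the somite libraries and at E28. It stood at 43.7 CPM with and 29.5 without either gene in E18-ZZ, at 76.0 and 29.1 in E18-DZ, at 102.8 and 56.1 in E21-ZZ, and at 69.3 and 29.3 in E21-DZ. At E28 it stood at 30.0 with and 58.3 without in ZZ, and at 38.7 and 44.6 in DZ. PAX9 was thus higher in cells with either gene in 4 of 4 libraries of E18 and E21 and lower in 2 of 2 of E28. The counting intervals of both sums overlapped in E18-ZZ and in E28-DZ. In E18-DZ the level with either gene rested on 21 PAX9 UMIs, and epithelial markers in the same cells summed to 321.9 CPM, while 15 PAX9 UMIs of that whole library lay in epithelial-like cells. Their part in the result was not tested. Averaged over the 6 libraries the difference was 0.58 (SE 0.21, unadjusted p = 0.0130, adjusted p = 0.150).

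MOXD1 stood at 233.0 CPM with and 316.3 without in E18-ZZ, at 137.5 and 311.6 in E18-DZ, at 144.7 and 228.8 in E21-ZZ and at 133.1 and 150.4 in E21-DZ. At E28 it stood at 101.6 and 128.0 in ZZ and at 81.4 and 48.1 in DZ. It was lower in cells with either gene in 5 of 6 libraries, and higher in E28-DZ. The average difference was -0.33 (SE 0.15, unadjusted p = 0.0343, adjusted p = 0.267).

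**Figure D4:**
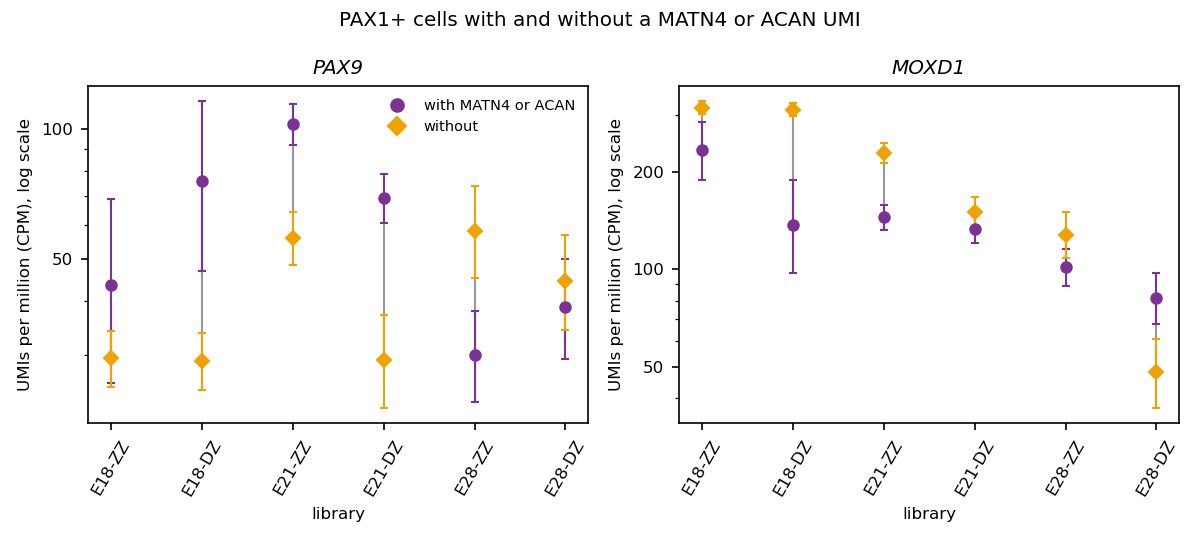
PAX9 (left) and MOXD1 (right) in CPM on a log axis, in PAX1+ cells with (circles) and without (diamonds) a MATN4 or ACAN UMI in 6 libraries, with exact 95% Poisson intervals and a line joining both sums of a library. PAX9 is higher with either gene at E18 and E21 and lower at E28.

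No member was called over the 6 libraries by edgeR, beside 4.92% of 10824 genes. Of the members 2 of 3 tested had an unadjusted p under 0.05, beside 1675 of the 10824 genes at 0.05 or less. DESeq2 called none either. FOXC1 gave 0.34 (adjusted p = 0.851), with 0 to 10 UMIs a library in cells with either gene and 1 to 12 without, and NKX3-2, TBX18 and FOXC2 had too few UMIs. Without both E28 libraries PAX9 passed at 1.04 (adjusted p = 5.65e-06) and MOXD1 at -0.51 (adjusted p = 0.00530), and both also passed when no filter on low counts was set. A test of E28 against E18 and E21, chosen after these values were seen, gave -1.53 for PAX9 (SE 0.25, adjusted p = 0.00161), beside 1.03% of all genes, and neither MOXD1 (0.73, adjusted p = 0.237) nor FOXC1 (2.07, adjusted p = 0.552) passed. The PAX9 call was lost without E28-ZZ (-1.13), with at least 2 PAX1 UMIs a cell (-1.49, adjusted p = 0.0957) and with ACAN alone (-1.38, adjusted p = 0.0728). It was also lost on thinned cells (-1.16, adjusted p = 0.0909). There the E18 libraries had only 14 (ZZ) and 10 (DZ) cells with either gene and dropped out of the fit. That value therefore compares E28 with E21 alone.

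Cartilage matrix genes rose with MATN4 or ACAN in PAX1+ cells. MATN4 and ACAN are cartilage matrix genes too, so a rise of this list follows from how the cells were chosen and is no separate result. Of 11 cartilage matrix genes tested 11 rose, among them MATN1 (5.63), EPYC (5.54), CNMD (4.04), COL9A3 (3.80) and COL2A1 (1.85), with a median of 3.02 against -0.01 over all genes. These 11 of 11 stand beside 4.92% of all genes called, as do the counts of the other lists. Of 12 sclerotome partners 4 rose, namely SOX6 (1.36), SOX5 (1.30), SOX9 (1.14) and UNCX (1.13). Another 2 fell, among them MEOX2 (-0.64), and 6 did not pass. Among 9 Hedgehog genes HHIP (0.92), PTCH1 (0.85) and GLI1 (0.48) rose and BOC (-0.99) and GLI3 (-0.31) fell. The rule of size takes only called genes with a mean of 20 CPM or more in the higher sum and the same direction in every library. Among those, COL11A2 (3.02), APOD (2.69), SCRG1 (2.53), ENSSSCG00000023322 (2.39), WWP2 (2.22), SORBS2 (1.57), KANK1 (1.47), COL9A1 (1.41) and PLCB1 (1.40) joined COL2A1 as the 10 that rose most. HBE1, an embryonic globin (-2.37), RFTN1 (-2.16), ENSSSCG00000007978 (-2.10), the muscle gene NEB (-2.07) and PRRX1, a factor of limb and facial mesenchyme (-1.95), fell most. The summed level of the 8 muscle markers ran from 41.57 to 133.4 CPM in cells with either gene and from 153.5 to 438.9 in those without, and that of the 6 erythroid markers present from 0.0 to 9.71 and from 3.482 to 17.49. The 8 epithelial markers ran from 0.308 to 321.9 CPM in cells with either gene, the highest in E18-DZ, and from 1.127 to 21.15 without, and the 8 macrophage markers from 0.0 to 35.57 and from 0.3205 to 3.061. The part of such cells or their free RNA in these differences was not tested.

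To see where the members lie among cell types, each cell was given the class of which it held most markers, if at least 3, and no member was among the markers. Of the PAX1+ cells, 5355 (76.59%) had no class by this rule. Fibroblast-like cells made up 9.74% of PAX1+ cells, against 11.55% of all cells, chondrogenic-like cells 7.28% against 2.914%, and tendon-like cells 2.331% against 1.678%. At E16 the largest named class among PAX1+ cells was epithelial-like, with 22 of 200 cells (11.0%) in ZZ and 25 of 296 (8.446%) in DZ, which was below their share of all cells there, 11.94% and 10.41%. Chondrogenic-like cells made up 3.0% and 4.73% of the PAX1+ cells of E16, against 0.9566% and 1.241% of all cells. Epithelial-like cells also held 12 of the 37 PAX9 UMIs of E16-ZZ and 21 of the 49 of E16-DZ, and their part in the E16 results was not tested. They made up 0.3546% to 0.4036% of PAX1+ cells at E18 and 0.0% later. Between early and late libraries the pooled share that was chondrogenic-like went from 3.021% to 9.824% and the fibroblast-like share from 1.453% to 14.69%, while over all cells they went from 1.192% to 4.346% and from 2.208% to 19.31%. No class was defined for the sclerotome itself.

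PAX1 had its highest mean level in chondrogenic-like cells, 96.8 ± 94.2 CPM (SD, n = 8 libraries). It was 59.7 ± 44.3 in cells with no class and 30.1 ± 31.8 in fibroblast-like cells. Tendon-like cells stood at 52.0 ± 37.3 (n = 5) and are not ranked with these, since they had no value for either E16 library or for E18-DZ. All these values overlapped widely. In chondrogenic-like cells PAX1 ran from 24.5 in E16-DZ to 308.3 in E21-ZZ, with 134.5 in E21-DZ and 59.3 and 50.4 at E28. It was lower in dermomyotome-like (3.01 ± 3.91), muscle-like (3.93 ± 3.49), neuron-like (1.74 ± 2.45) and lateral plate-like cells (0.749 ± 0.533). Muscle-like cells had no value for either E16 library, neuron-like cells none for E16-ZZ and lateral plate-like cells none for any late library. PAX9 stood at 22.2 ± 27.2 in chondrogenic-like cells, 12.5 ± 9.6 in cells with no class, 11.5 ± 4.9 in tendon-like, 6.52 ± 9.85 in epithelial-like (n = 5) and 5.64 ± 6.32 in fibroblast-like cells. These are not ranked, since the tendon-like and epithelial-like means rest on fewer libraries. In chondrogenic-like cells PAX9 reached 79.93 (ZZ) and 45.95 (DZ) on E21. On E28 it was 11.2 (ZZ) and 13.37 (DZ) there, below the 15.24 (ZZ) and 22.2 (DZ) of cells with no class. The epithelial-like value ran from 1.088 in E18-ZZ to 24.06 in E18-DZ, on 2 and 15 UMIs. PAX1 in epithelial-like cells stood at 10.01 ± 14.43 (n = 5).

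MOXD1 was spread over other classes. Its mean was 204.8 ± 147.4 CPM in neural crest and glia-like, 175.7 ± 65.8 in muscle-like (n = 6), 173.4 ± 109.6 in dermomyotome-like, 147.4 ± 50.1 in chondrogenic-like and 141.3 ± 84.7 in tendon-like cells (n = 5). These overlapped and are not ranked, since the muscle-like and tendon-like means rest on fewer libraries. MOXD1 was low in endothelial-like (12.4 ± 12.1) and erythroid-like cells. The neural crest and glia-like cells went from 23.5 (ZZ) and 19.6 (DZ) on E16 to 414.6 (ZZ) and 284.5 (DZ) on E28, and every late library was above every early one. Dermomyotome-like cells went the other way, from 170.9 to 357.8 in early to 59.8 to 115.9 in late libraries. They were above the neural crest and glia-like cells in 4 of 4 early libraries and below them in 4 of 4 late ones. TBX18 stood at 2.94 ± 2.95 CPM in lateral plate-like cells (n = 4, all early) and FOXC2 at 0.786 ± 0.435 CPM in chondrogenic-like cells (n = 8), both on few UMIs. FOXC1 stood at 1.47 ± 1.60 in chondrogenic-like cells (n = 8) and 1.56 ± 0.88 in tendon-like cells, which had no value for either E16 library or for E18-DZ (n = 5), and these values are not ranked.

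**Figure D5:**
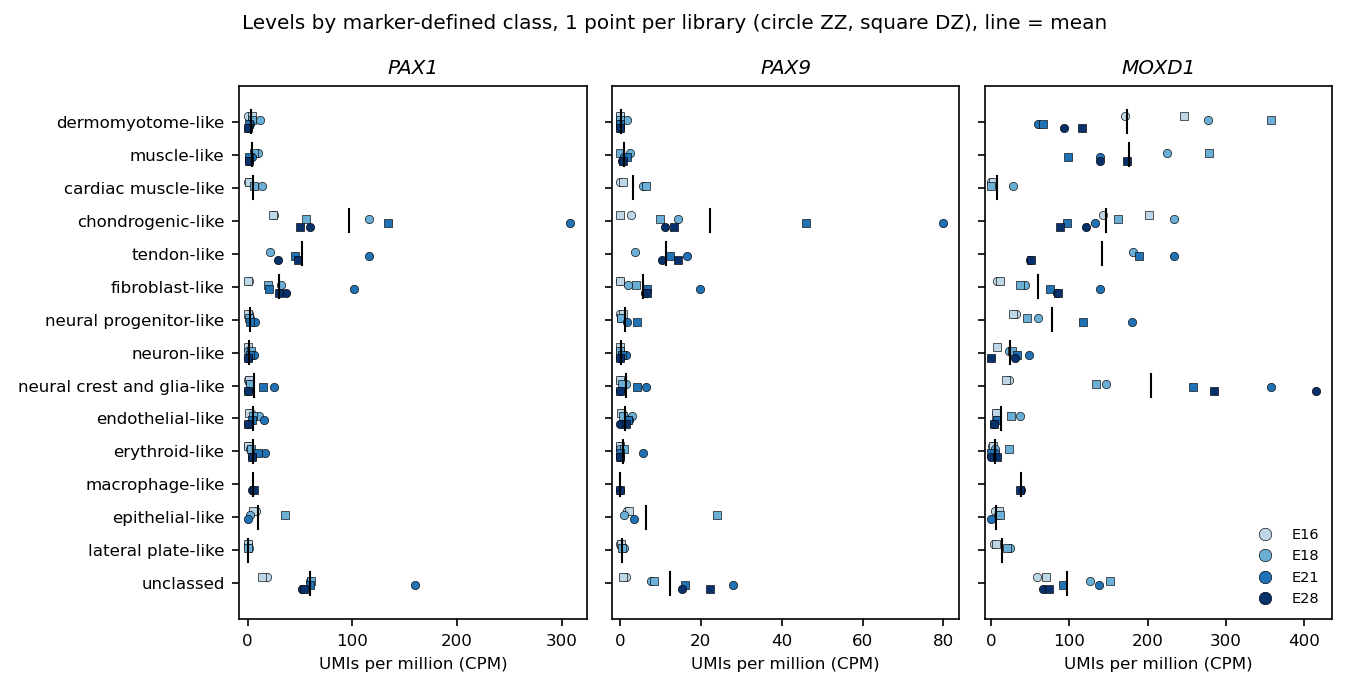
PAX1, PAX9 and MOXD1 in CPM (horizontal axis) in each marker-defined class (rows), with 1 point per library of at least 20 cells (circles ZZ, squares DZ, darker blue for later stages) and a black line at the mean. PAX1 and PAX9 are highest in chondrogenic-like cells of E21-ZZ, at 308.3 and 79.9, whereas the highest MOXD1 value, 414.6, is that of neural crest and glia-like cells in E28-ZZ.

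Over the 87 sums of a class in a library, PAX9 was the gene whose log2(CPM + 1) was most like that of PAX1 (Pearson r = 0.844), and PAX1 the one most like PAX9. ACAN (0.661), KCNS1 (0.646), PTGFR (0.646) and ITGA11 (0.635) came next for PAX1, and KCNS1 (0.709), ACAN (0.698), C17orf67 (0.677) and PTGFR (0.671) for PAX9. FOXC1 ranked 13th (0.58), FOXC2 39th (0.505) and MOXD1 251st (0.387) in likeness to PAX1. The sums share libraries and differ in depth, so these values describe the data and carry no test.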

How the data were processed

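Somites (E16, E18, E21) and myotome (E28) of ZZ and DZ pigs were measured in 8 libraries. According to the labels and methods, the authors made 10x Chromium libraries and counted UMIs with Cell Ranger, and the deposited counts are whole numbers per gene and barcode, without normalization. The E16 matrices name version 3.1.0 and the others 3.0.2, on Sscrofa11.1 with Ensembl release 98 genes.

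Barcodes with under 200 genes, over 30000 UMIs or over 10% mitochondrial UMIs (13 genes) were removed, which are the study's limits, and then those with the highest Scrublet scores (scanpy 1.11.5), at 0.8% per 1000 barcodes. The study used DoubletFinder instead. Counts were summed per library over all cells, or over PAX1+ or PAX1- cells, and over PAX1+ cells with or without MATN4 or ACAN, with at least 20 cells a sum. Sums were tested over all genes with edgeR 4.0.16 (TMM normalization, default filter on low counts, quasi-likelihood test, Benjamini-Hochberg adjustment at 0.05), with stage and breed as terms between libraries and the library as a block within them. Whole-library shares were compared on cells thinned to 2000 UMIs by exact two-sided permutation. DESeq2 1.42.0 was an alternative. Intervals and limits for a count of 0 (3 UMIs) cover counting error only. The fits of late against early in whole libraries and of PAX1+ against PAX1- cells were also run on simulated counts. The other fits were not. Software was Python 3.11.15, numpy 2.4.6, scipy 1.17.1 and R 4.3.3 with limma 3.58.1.

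A cell was given a class if at least 3 of its 8 markers were found and no other class had as many. Genes named beside the members were the 10 that rose and 5 that fell most among called genes with a mean of 20 CPM or more in the higher sum and the same direction in every library. The members, lists and markers were chosen with earlier results of these data known. Some genes of these lists are not reported here by name. GAS1, COL9A2 and some class markers had no row of their symbol. Gene positions and sequences came from RefSeq on the same build, matched by symbol for all 8 members.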

Additional observations from a re-analysis of the deposited data

Results flagged for a closer look

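MOXD1 differed between early and late libraries in how far PAX1+ cells stood from PAX1- cells, by -2.06 on the log2 scale (late minus early), in a test of that difference itself. MOXD1 was higher in PAX1+ cells in 4 of 4 early libraries and 3 of 4 late ones. Neural crest and glia-like cells, in which MOXD1 was highest at E28, made up 0.0% of PAX1+ cells in both E28 libraries and up to 1.505% at E21, and their part in the change was not tested.

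PAX9 differed between PAX1+ cells with and without MATN4 or ACAN in another direction at E28 than at E18 and E21, by -1.53 on the log2 scale, in a contrast added after the values were seen. In CPM the mean of with minus without at E28 less that at E18 was -47.62, and less that at E21 it was -60.47, and these stage pairs were not tested one by one. For FOXC1 the same quantity was higher at E28 than at E21 by 4.458 CPM, on at most 10 UMIs a sum, and was not tested. Tissue and stage cannot be told apart at E28.

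NKX3-2 stood out in E16-ZZ, at 0.02509 CPM, because 1 UMI was counted there and none in the other early libraries. With 1 UMI in 1 library and none in the others such a flag is certain, so it carries no weight.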

How the results depend on the processing

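The values for single members were tallied together with the counts of members called in the added contrast of E28 with E18 and E21. Of these, 630 kept their direction and side of the threshold under the alternatives, 41 lost a call and 19 gained one. Another 15 changed sign and 5 moved, among the latter counts of the added contrast. A change of sign is listed as such even where a call was lost, as for MOXD1 late against early without both E16 libraries. Leaving out 1 library at a time left 0 to 3 members called at E18 against E16 (3 with all libraries), 0 to 2 at E21 against E18 (1), 0 to 1 at E28 against E21 (1), 2 to 4 late against early (4), 3 to 5 in PAX1+ against PAX1- cells (5) and 0 to 1 with against without MATN4 or ACAN (0). The cause was not tested, and such fits leave a stage with 1 library, which is assumed to vary like the others. In what follows, the share of all genes called in the same fit stands in brackets. Without both E16 libraries the counts were 0 at E28 against E21 (6.66%) and 1 late against early (30.8%). They were 3 in PAX1+ against PAX1- cells (19.1%) and 0 for its change from early to late (3.11%). Other counts were 2 at E21 against E18 with a mitochondrial limit of 5% (15.5%) and 0 at E28 against E21 with no breed term (10.1%). There were 3 in PAX1+ against PAX1- cells when thinned (13.4%), and 2 for its change with DESeq2 (5.89%). For MATN4 or ACAN they were 2 with no filter on low counts (5.15%) and 2 without both E28 libraries (3.66%). They were 1 with at least 2 PAX1 UMIs (2.23%) and 1 with ACAN alone (4.06%). The E16 libraries had too few such cells to be fitted, so leaving them out was not run there. For the same reason both E18 libraries dropped out on thinned cells. E18-ZZ dropped out at a mitochondrial limit of 5% and E18-DZ with MATN4 alone. For the added contrast of E28 with E18 and E21 the count was 1 (1.03%), and 2 with no filter (1.29%). It was 0 with at least 2 PAX1 UMIs (0.183%) or with ACAN alone (0.342%). On thinned cells it was 0 as well (1.52%), for E28 against E21 alone.

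The gap in the share of PAX1+ cells with MATN4 or ACAN was 42.12 to 49.12 points with 1 library left out, 45.7 without both E16 and 40.68 without both E28 libraries, where an exact p of 0.05 cannot be reached. Values that changed sign were those of TBX18 late against early (-0.66 to 0.21 with 1 library left out, 0.19 without both E28 libraries), MOXD1 at E21 against E18 (-0.52 to 0.0883), MOXD1 at E28 against E21 (-0.51 to 0.0893), FOXC1 at E28 against E21 (-0.0907 to 0.37) and MOXD1 late against early without both E16 libraries (-0.30). The early-to-late change of the PAX1+ difference changed sign for TBX18 with no doublets removed (0.0001), without both E16 (0.0117) or both E28 libraries (0.0525) and with at least 2 PAX1 UMIs (0.1463), and for FOXC2 at a mitochondrial limit of 5% (-0.0757) and on thinned cells (-0.7201). FOXC1 did so with against without MATN4 or ACAN without both E28 libraries (-0.3622) and in the added contrast with ACAN alone (-0.1077).

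Counts over all genes also depended on the fit. They were 712 at E18 against E16 (17 to 2148 over the alternatives), 3200 at E21 against E18 (373 to 4086), 1289 at E28 against E21 (327 to 2299), 7850 late against early (4577 to 8038), 3057 in PAX1+ against PAX1- cells (1748 to 3191), 780 for its change (371 to 1111), 5013 late against early in PAX1+ cells (2649 to 5464), 533 with against without MATN4 or ACAN (207 to 852) and 112 for the added contrast (17 to 214).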
